A study of Mus musculus with 2 samples.

Results

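The 10 genes described here belong to bone morphogenetic protein (BMP) signalling or, for Wfikkn2, to the inhibition of related ligands. The others are the ligands Bmp4 and Bmp7, the secreted antagonist Nog, the receptors Bmpr1a and Bmpr2, and the targets Id1, Id2, Id3 and Smad6. All 10 were taken by symbol, each from 1 row, out of 27998 gene rows. They had been picked with levels from these same libraries known, so each ratio given for them is a description and carries no test. Levels were read in single cells, captured in droplets, of the retinal pigment epithelium (RPE), a pigmented sheet that nourishes the photoreceptors, and of the vascular choroid beneath it.

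The NaIO3 group was made of C57BL/6J mice given sodium iodate, an oxidant that damages the RPE, at 20 mg/kg into a vein, with a treatment of 7 days. The PBS group was made of C57BL/6J mice that received the same volume of phosphate-buffered saline for 7 days. The eyes of 6 mice were pooled in each group, and each pool gave 1 library. In both groups the anterior eye and neural retina were taken away after dispase digestion and brown, hexagonal cells were gathered by hand, so that the mix of cells reflects this dissection too. With 1 library per group no difference has a replicate check, and no test was made. The 95% intervals beside the values are exact, and they describe counting error alone and not the spread between mice.

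BMP ligands bind a complex of type I receptors such as BMPR1A and the type II receptor BMPR2, which phosphorylates SMAD proteins that move to the nucleus with SMAD4. Noggin, the product of Nog, binds BMP4 and BMP7 outside the cell and keeps them from the receptors. The Id genes are direct targets of this pathway, and their products hold E proteins away from DNA, while SMAD6 is an inhibitor that the pathway induces against itself.

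The NaIO3 library held 4058 barcodes and 51168520 unique molecular identifiers (UMIs), and the PBS library 4618 barcodes and 51055592 UMIs, with medians of 9793 and 10025 UMIs per barcode. Of these, 3816 NaIO3 cells and 4225 PBS cells were kept, and 24 barcode sequences occurred in both libraries. Clusters were named by marker genes. RPE-like cells other than the melanosome-high ones numbered 1017 in NaIO3 and 2633 in PBS, and melanosome-high RPE-like cells, led by pigment granule genes such as Pmel and Dct, 1145 and 786. All 14 RPE markers were detected in both classes and libraries, and Rpe65, the isomerase of the visual cycle, was at 3637 CPM in NaIO3 and 4029 CPM in PBS RPE-like cells, where CPM is the usual scaling of a gene's counts by the total of its class and library. Apart from 2 NaIO3 cells and 3 PBS cells, no RPE-like cluster mixed the libraries, so the library and any state of the cells cannot be told apart there. A further 213 NaIO3 cells and 0 of 4225 PBS cells, which allows a PBS share of up to 0.0710%, fell in 2 clusters rich in matrix genes and in the cell cycle inhibitor gene Cdkn2a. They are called matrix-rich here, and 84 dividing NaIO3 cells carried RPE genes, against 1 such PBS cell.

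Among the target genes, Id2, Id3 and Smad6 have a promoter in the RefSeq table used (build GRCm38.p6), and these are shown because the values turn on whether the targets of the pathway shared a direction. In all 7 of the 10 genes matched; Nog, Bmp7 and Id1 did not. Each sequence is a promoter of 300 bases as that table places it, 5′ to 3′ on the strand of the gene. By the GENCODE coordinates given below, the Smad6 stretch spans the start of its gene. The Id2 and Id3 stretches lie inside their genes and do not reach the start given there. Capitals mark GGCGCC, a GC-rich element known to bind BMP-activated SMADs, and GTCT (or AGAC on the other strand), the core SMAD element. The Id2 stretch is chr12:25096043-25096342 on the minus strand, the Id3 stretch chr4:136143572-136143871 on the plus strand, and the Smad6 stretch chr9:64022010-64022309 on the minus strand.
Id2: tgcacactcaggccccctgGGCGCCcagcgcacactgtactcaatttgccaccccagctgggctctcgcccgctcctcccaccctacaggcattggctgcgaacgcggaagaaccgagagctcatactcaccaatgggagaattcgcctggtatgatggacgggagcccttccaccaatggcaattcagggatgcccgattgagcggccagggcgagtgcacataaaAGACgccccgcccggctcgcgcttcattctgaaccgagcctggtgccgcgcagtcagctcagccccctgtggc
Id3: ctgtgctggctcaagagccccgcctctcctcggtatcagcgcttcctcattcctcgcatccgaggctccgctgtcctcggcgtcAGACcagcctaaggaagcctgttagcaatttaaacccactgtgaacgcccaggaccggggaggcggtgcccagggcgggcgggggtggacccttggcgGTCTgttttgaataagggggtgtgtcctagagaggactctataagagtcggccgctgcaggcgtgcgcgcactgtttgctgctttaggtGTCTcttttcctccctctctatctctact
Smad6: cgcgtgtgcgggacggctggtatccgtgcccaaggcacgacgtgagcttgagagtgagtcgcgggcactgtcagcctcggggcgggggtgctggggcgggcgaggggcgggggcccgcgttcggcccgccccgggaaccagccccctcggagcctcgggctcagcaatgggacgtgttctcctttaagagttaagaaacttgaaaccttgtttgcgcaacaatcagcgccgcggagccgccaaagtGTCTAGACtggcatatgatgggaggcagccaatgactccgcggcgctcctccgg
GGCGCC stood in 11.9% of the 32851 promoters of this length and GTCT in 88% of them. Id2 held 1 match to GGCGCC and 1 to GTCT, Id3 held 0 and 3, and Smad6 held 0 and 2. The matches in Smad6 adjoin as GTCTAGAC, a palindrome sought after the sequences were seen, which stood in 70 of the 32851 promoters (0.213%) and in no other of the 7 matched genes. Such matches describe letters and not binding.

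**Figure D1:**
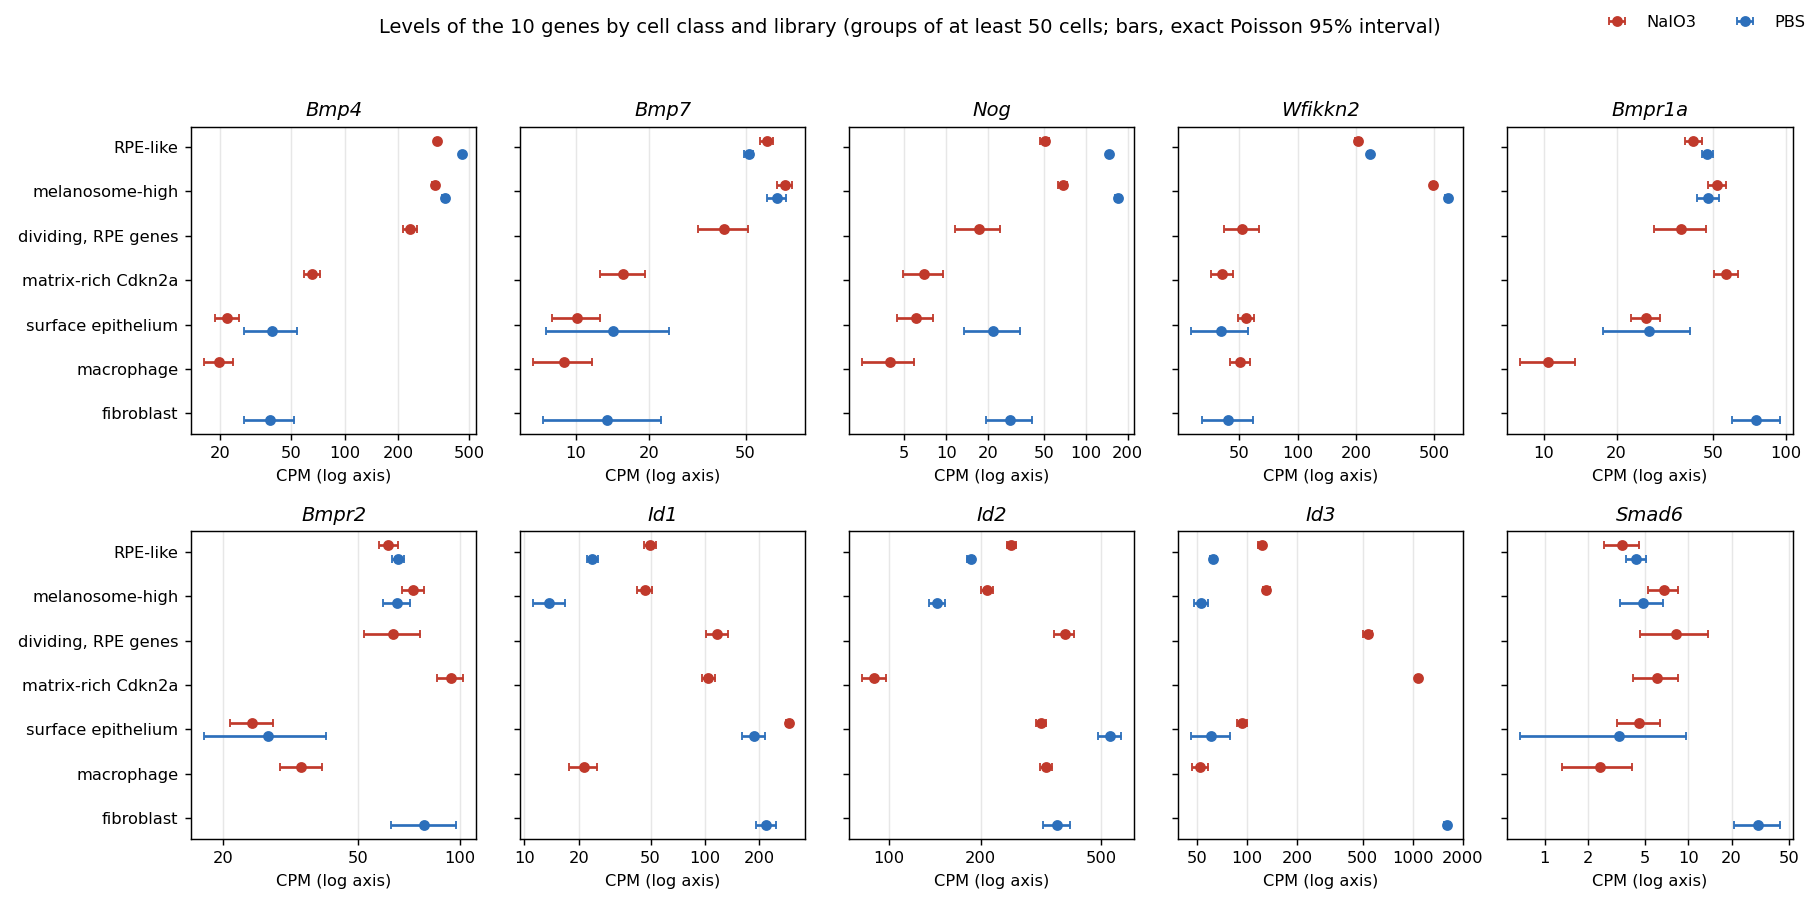
Level of each gene in CPM (log axis, each panel with its own range) by cell class, with NaIO3 in red above PBS in blue; points are sums over all cells of a class and library, bars are exact Poisson 95% intervals, and only groups of at least 50 cells are drawn. Bmp4, Bmp7, Nog and Wfikkn2 sit highest in the RPE-like classes, while Id3 is highest in PBS fibroblast-like cells (1612 CPM) and in matrix-rich cells (1071 CPM).

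Of the ligands, Bmp4 was lower in NaIO3 RPE-like cells and Bmp7 slightly higher. Bmp4 (chromosome 14, 46383520 to 46390669, minus strand, GRCm38) was at 329 CPM in NaIO3 and 455 CPM in PBS RPE-like cells, a ratio of 0.723 (0.700 to 0.747). In melanosome-high cells it was at 321 CPM in NaIO3 and 364 CPM in PBS, a ratio of 0.882 (0.838 to 0.928), which became 1.005 once an estimate of free RNA was subtracted. After each cell was thinned to 4000 UMIs, a UMI of Bmp4 was seen in 68.8% of NaIO3 and 81.8% of PBS RPE-like cells. Unthinned, the shares were 91.4% and 96.6%. Thinned macrophage-like cells gave 7.76% in NaIO3 and 14.3% of 28 cells in PBS. In PBS, 30.8% of 26 endothelial-like and 43.3% of 30 dendritic-like cells held a Bmp4 UMI too. The share of cells with a UMI may thus exceed the share that expresses Bmp4. Gm15217 and Gm15222 overlap Bmp4 on the opposite strand, and no source used here gives the strand setting of the counting, so its counts may include theirs. Bmp7 (chromosome 2, 172868012 to 172940321, minus strand) was at 61.0 CPM in NaIO3 and 51.5 CPM in PBS RPE-like cells, a ratio of 1.19 (1.09 to 1.29), and at 72.6 and 67.2 CPM in melanosome-high cells of NaIO3 and PBS, where the direction turned round under TMM and median-of-ratios scaling (lowest ratio 0.894). Neither ligand passed 1.5-fold in either class. Among all groups of at least 50 cells, the 4 highest levels of both ligands were those of the 4 RPE-like groups, though the fourth of Bmp7 overlapped that of dividing cells with RPE genes.

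Nog, which encodes an antagonist of both ligands, had the ratio farthest from 1 in RPE-like cells. Nog (chromosome 11, 89300638 to 89302332, minus strand) was at 50.8 CPM from 749 UMIs in NaIO3 RPE-like cells and at 148 CPM from 5162 UMIs in PBS RPE-like cells, a ratio of 0.344 (0.318 to 0.372). In melanosome-high cells it was at 68.2 CPM in NaIO3 and 170.3 CPM in PBS, a ratio of 0.401 (0.365 to 0.440). The order of its levels was therefore PBS melanosome-high, PBS RPE-like, NaIO3 melanosome-high and NaIO3 RPE-like, with no overlap between neighbouring intervals. After thinning, 17.1% of NaIO3 RPE-like cells (14.8 to 19.6) and 43.0% of PBS RPE-like cells (41.1 to 44.96) held a Nog UMI, against 40.02% and 72.5% unthinned. Thinning left out 0 NaIO3 and 69 PBS cells with fewer UMIs. In macrophage-like cells, which should lack the gene, the thinned share was 1.83% in NaIO3 (median 11755 UMIs per cell, against 11942 in NaIO3 and 12104 in PBS RPE-like cells) and 0 of 28 cells in PBS. Other PBS classes gave more, with 9.68% of 62 surface epithelium-like cells, 7.77% of 103 fibroblast-like cells, 23.1% of 26 endothelial-like cells and 26.7% of 30 dendritic-like cells, and the intervals of these last 2 classes reach the PBS RPE-like share.

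1 small NaIO3 cluster stood apart for Nog. The 45 cells of an RPE-like cluster led by interferon-induced genes such as Rsad2 and Ifit1 held 96 Nog UMIs, in 23 cells, or 169 CPM. Its highest cell had 17 Nog UMIs, and without its 3 highest cells the level was 123 CPM. The other interferon-led cluster, with 68 cells, was at 41.8 CPM, and the largest NaIO3 RPE-like cluster, with 875 cells, at 46.2 CPM. PBS RPE-like clusters were at 146 and 161 CPM. The high level was thus seen in 1 of the 2 interferon-led clusters, and without both of them the ratio of Nog in RPE-like cells was 0.314.

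Wfikkn2 encodes a secreted inhibitor of myostatin and GDF11, relatives of the BMPs. The gene (chromosome 11, 94235956 to 94246005, minus strand) was at 203 CPM in NaIO3 and 234 CPM in PBS RPE-like cells, a ratio of 0.868 (0.832 to 0.905), and at 497 CPM in NaIO3 and 590.2 CPM in PBS melanosome-high cells, a ratio of 0.843 (0.809 to 0.878). Its level differed more between these 2 classes than between the libraries. Melanosome-high cells held 2.45 times the level of other RPE-like cells in NaIO3 (2.34 to 2.57) and 2.52 times in PBS (2.43 to 2.62). It did not follow the melanosome genes in every class. Dividing NaIO3 cells with RPE genes had Pmel at 391 CPM, against 232 CPM in NaIO3 melanosome-high cells, but Wfikkn2 at 51.7 CPM. Wfikkn2 was itself among the 10 leading genes of both melanosome-high clusters when ranked over all clusters. The class rule did not use it, but the clusters were formed on these same counts, so the ratios between the classes are descriptions. The direction between libraries in RPE-like cells also depended on which cells were counted, and 5 of 14 other settings put the ratio above 1. With the melanosome-high clusters counted in it was 1.10, and at Leiden resolution 2 it was 1.51. At that resolution 0 NaIO3 and 1086 PBS cells were named melanosome-high. The 2144 NaIO3 and 2289 PBS RPE-like cells compared there were thus unlike sets.

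The receptors were close to their PBS levels. Bmpr1a (chromosome 14, 34410734 to 34503341, minus strand) was at 41.5 CPM in NaIO3 and 47.5 CPM in PBS RPE-like cells, a ratio of 0.875 (0.796 to 0.960), and in melanosome-high cells at 51.9 and 47.7 CPM, a ratio of 1.09 (0.9501 to 1.25). Bmpr2 (chromosome 1, 59763400 to 59879014, plus strand) was at 61.4 CPM in NaIO3 and 65.5 CPM in PBS RPE-like cells, a ratio of 0.937 (0.867 to 1.01), and in melanosome-high cells at 72.7 and 65.1 CPM, a ratio of 1.12 (0.993 to 1.25). 3 of these 4 intervals reach 1, and the exception, Bmpr1a in RPE-like cells, lies within 1.5-fold. In melanosome-high cells both scalings turned the ratios of the receptors below 1, to 0.902 for Bmpr1a at the lowest. Gm17110 overlaps Bmpr1a on the opposite strand and Gm38125 overlaps Bmpr2 on the same strand, so both values may hold reads of another gene.

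All 3 Id genes were higher in NaIO3 than in PBS cells of both classes, Id1 and Id3 by more than 1.5-fold. Id1 (chromosome 2, 152736251 to 152737410, plus strand) was at 49.8 CPM in NaIO3 and 23.8 CPM in PBS RPE-like cells, a ratio of 2.09 (1.89 to 2.31). In melanosome-high cells Id1 was at 46.4 CPM from 483 UMIs in NaIO3 and 13.7 CPM from 100 UMIs in PBS, a ratio of 3.37 (2.72 to 4.23). The PBS melanosome-high cells had the lowest level of Id1 of all 10 groups, below NaIO3 macrophage-like cells at 21.3 CPM. Id3 (chromosome 4, 136143497 to 136145755, plus strand) was at 123 CPM in NaIO3 and 62.4 CPM in PBS RPE-like cells, a ratio of 1.97 (1.85 to 2.09), and at 131 and 52.8 CPM in melanosome-high cells, a ratio of 2.49 (2.22 to 2.79). Id2 (chromosome 12, 25093799 to 25097140, minus strand) was at 253 CPM in NaIO3 and 185 CPM in PBS RPE-like cells, a ratio of 1.37 (1.31 to 1.42), and at 210.2 and 144 CPM in melanosome-high cells, a ratio of 1.46 (1.35 to 1.57). The Id genes thus shared a direction and differed in size, with Id2 within 1.5-fold in both classes.

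Smad6 (chromosome 9, 63953076 to 64022059, minus strand) did not share that direction in RPE-like cells, but its counts were few. It was at 3.46 CPM from 51 UMIs in NaIO3 and 4.35 CPM from 152 UMIs in PBS RPE-like cells, a ratio of 0.796 (0.568 to 1.10). In melanosome-high cells it was at 6.72 CPM from 70 UMIs in NaIO3 and 4.81 CPM from 35 UMIs in PBS, a ratio of 1.40 (0.919 to 2.16). Both intervals include 1, so no difference was detectable at this depth, and 5 of 14 other settings put the RPE-like ratio above 1.

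**Figure D2:**
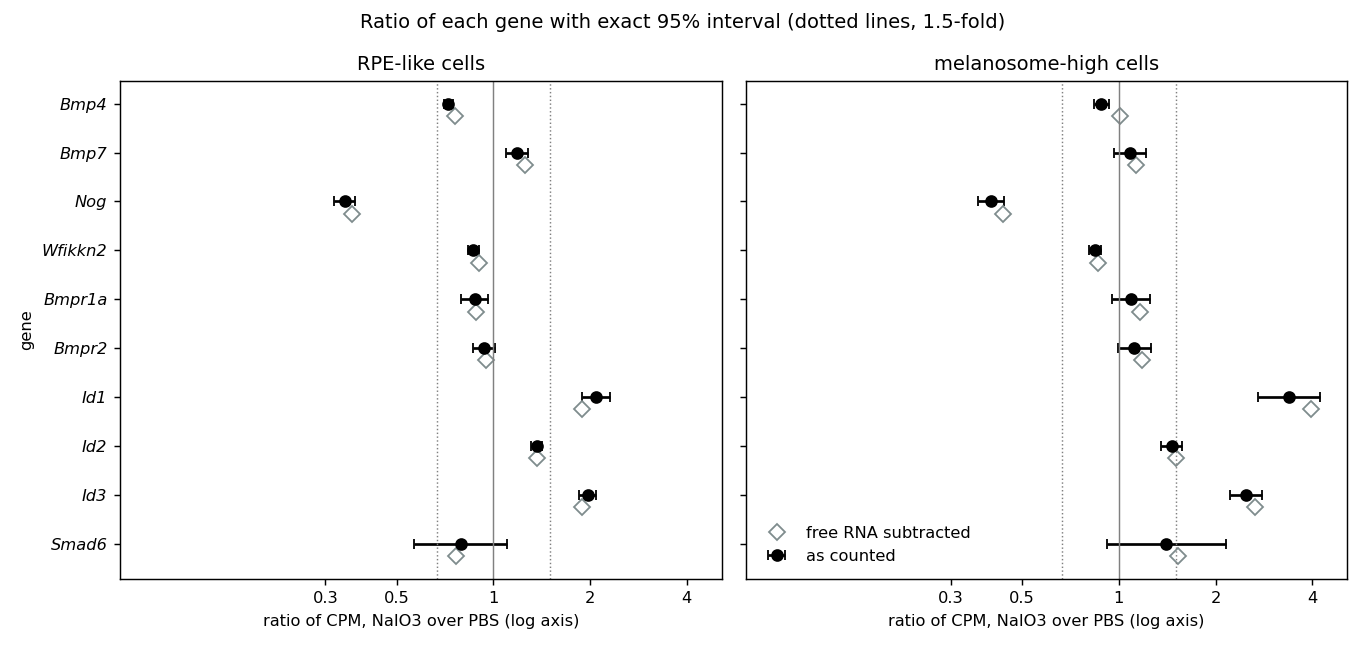
Ratio of CPM, NaIO3 over PBS, on a log axis for each gene in RPE-like cells (left) and melanosome-high cells (right); filled points are counts as deposited with exact 95% intervals, open diamonds are the values after an estimated share of free RNA was subtracted, and dotted lines mark 1.5-fold. Nog lies left of the lower line (0.344 and 0.401), and Id1 and Id3 lie right of the upper line in both panels.

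In RPE-like cells 1 of the 10 genes was lower by 1.5-fold or more, where 7.01% of 13448 measured genes were, and 2 were higher, where 14.8% were. In melanosome-high cells the counts were again 1 and 2, beside 7.43% lower and 30.1% higher of 12105 genes. The median log2 ratio of the 10 genes was -0.14 in RPE-like and 0.14 in melanosome-high cells, beside 0.06 and 0.27 over all measured genes. Since the genes had been picked with this contrast known, nothing is read from these shares.

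RNA from broken cells reaches every droplet, and the classes that hold most Id1 and Id3 were not equally common in the libraries. Surface epithelium-like cells, which held Id1 at 293 CPM in NaIO3 and 186 CPM in PBS, numbered 687 in NaIO3 and 66 in PBS. All 10 surface epithelium markers were detected in RPE-like cells, at a summed 1384 CPM in NaIO3 and 85.3 CPM in PBS, as were all 9 macrophage markers, at 1088 and 189 CPM. The 9 fibroblast markers were at 76.3 CPM in NaIO3 and 85.6 CPM in PBS, and the 8 rod markers at 303 and 797 CPM. From 16 genes of surface epithelium and macrophages the free share of RPE-like counts was estimated at 15.95% in NaIO3 and 17.3% in PBS, and in melanosome-high cells at 21.3% and 20.95%. With it subtracted, Id1 was at 40.9 CPM in NaIO3 and 21.6 CPM in PBS RPE-like cells, Id3 at 98.9 and 52.3 CPM, and Nog at 54.0 and 149 CPM, so all 3 stayed past 1.5-fold. In melanosome-high cells 44.1% of Id1 UMIs in NaIO3 and 52.3% in PBS would be free RNA by this estimate, with Id1 at 32.8 and 8.28 CPM after subtraction. The median mitochondrial share was also higher in NaIO3, at 9.71% against 7.93% in RPE-like and 13.9% against 10.1% in melanosome-high cells, and with a limit of 10% on it the ratio of Nog was 0.341. The part of other cell types beyond this estimate was not tested.

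**Figure D3:**
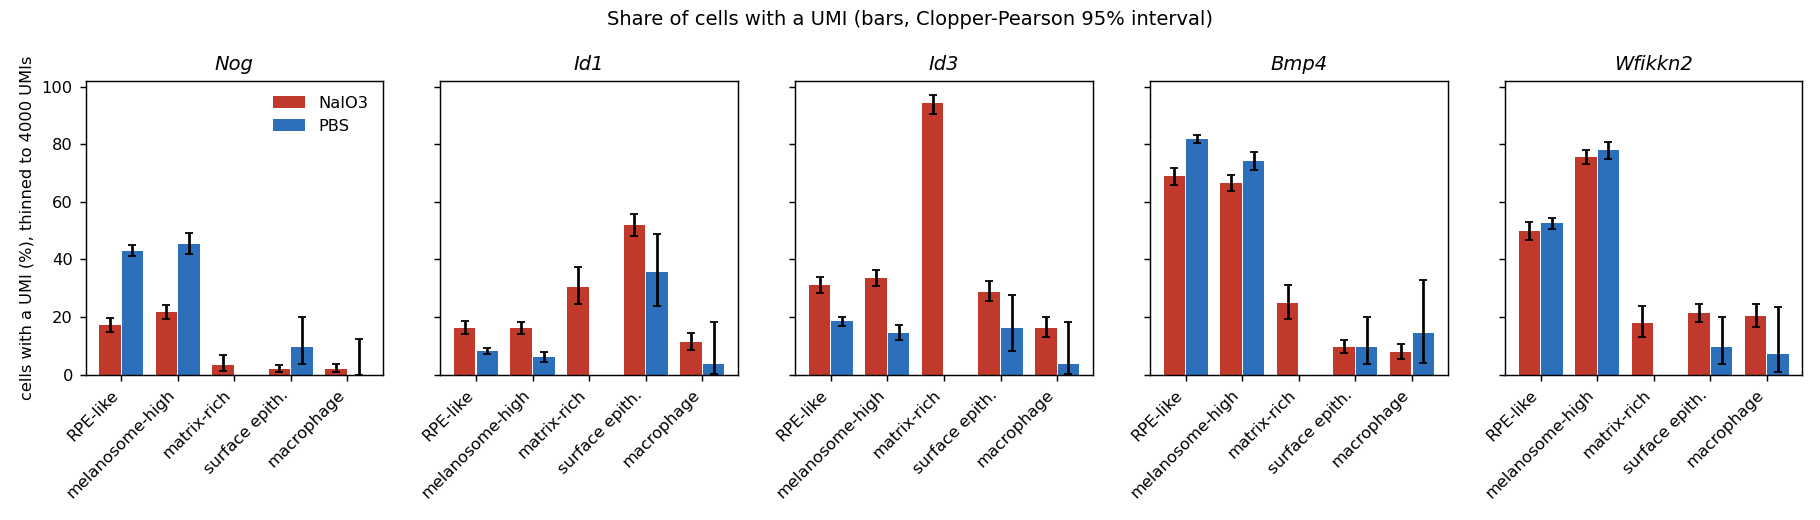
Share of cells (percent, from 0) with at least 1 UMI of a gene after each cell was thinned to 4000 UMIs, by class, with NaIO3 in red left of PBS in blue and Clopper-Pearson 95% intervals; matrix-rich cells exist in NaIO3 alone, and only 28 PBS macrophage-like cells could be thinned. Nog was seen in 17.1% of NaIO3 and 43.0% of PBS RPE-like cells, and Id3 in 94.4% of matrix-rich cells.

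Shares of cells gave the same directions for the Id genes. After thinning, Id1 was seen in 16.2% of NaIO3 (14.01 to 18.6) and 8.23% of PBS RPE-like cells (7.19 to 9.36), against 39.8% and 19.2% unthinned. Id3 was seen in 31.1% of NaIO3 and 18.5% of PBS RPE-like cells (62.1% and 39.2% unthinned), and Id2 in 56.4% and 42.8% (84.5% and 73.2% unthinned). NaIO3 macrophage-like cells gave 11.2% for Id1 (8.39 to 14.5) and 16.2% for Id3, below the NaIO3 RPE-like shares, though the intervals of Id1 overlap. The PBS RPE-like share of Id1, 8.23%, was no higher than that of these macrophage-like cells. Id2 was seen in 60.96% of NaIO3 macrophage-like and 57.8% of NaIO3 surface epithelium-like cells, no less than in NaIO3 RPE-like cells. In PBS only 28 macrophage-like cells could be thinned, of which 1 held Id1, 1 held Id3 and 10 held Id2. By the estimate from marker genes, free RNA made up 30.8% of the Id1 UMIs of RPE-like cells in NaIO3 and 24.9% in PBS. Id1 and Id3 tended to be seen in the same cells: Id3 was in 41.8% of NaIO3 RPE-like cells with an Id1 UMI and 29.0% of those without, and in PBS in 37.0% and 16.8%.

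Whether cells with more Nog held less of the targets was described in the thinned cells. In PBS RPE-like cells with 0, 1 and at least 2 Nog UMIs (1461, 765 and 338 cells), Id1 was at 30.8, 17.7 and 14.1 CPM. Over the same steps Id3 was at 70.7, 48.7 and 34.0 CPM and Id2 at 196, 149 and 122 CPM, so all 3 were lower where Nog was higher, though the last 2 intervals of each gene overlap. Wfikkn2 ran the other way, at 235, 273 and 394 CPM, while Bmp4 was at 469, 448 and 441 CPM, with intervals that overlap. In NaIO3 RPE-like cells Bmp4 was at 321 (302 to 341), 363 and 461 CPM (351 to 595), higher in the last step than in the first. In NaIO3 RPE-like cells (843, 142 and 32 cells) Id2 was at 253, 215 and 180 CPM (at least 2 UMIs: 114 to 270), and Id3 at 119, 93.3 and 93.8 CPM. Id1 was at 51.0, 54.6 and 31.3 CPM there, the last from 4 UMIs, with intervals that overlap throughout, and Wfikkn2 at 229, 278 and 203 CPM. In melanosome-high cells Id2 was at 218, 129.5 and 104 CPM in NaIO3 and at 171, 119 and 101 CPM in PBS, and Wfikkn2 at 515, 678 and 849 CPM in NaIO3 and at 522, 694 and 772 CPM in PBS. There too, in both libraries, Id2 was lower and Wfikkn2 higher in cells with more Nog, with intervals of the last 2 steps that overlap. Id1 and Id3 were less steady in these cells: Id1 was at 47.7, 34.6 and 42.5 CPM in NaIO3 and 21.2, 14.8 and 6.58 CPM in PBS, and Id3 at 129, 103 and 80.2 CPM in NaIO3 and 60.5, 36.4 and 41.7 CPM in PBS. Bmp4 in melanosome-high cells was at 309.6, 318 and 373 CPM in NaIO3 and 337, 395.5 and 373 CPM in PBS, with intervals of the first and last steps that overlap. At 0 Nog UMIs the Id levels still differed between the libraries: Id1 was at 51.0 CPM (43.7 to 59.2) in NaIO3 and 30.8 CPM (26.5 to 35.6) in PBS, and Id3 at 119 CPM (107 to 131) and 70.7 CPM (64.0 to 77.8). The cells of a step share a library and depth, and a cell without a Nog UMI may still express the gene. The part of free RNA in these steps was not tested.

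**Figure D4:**
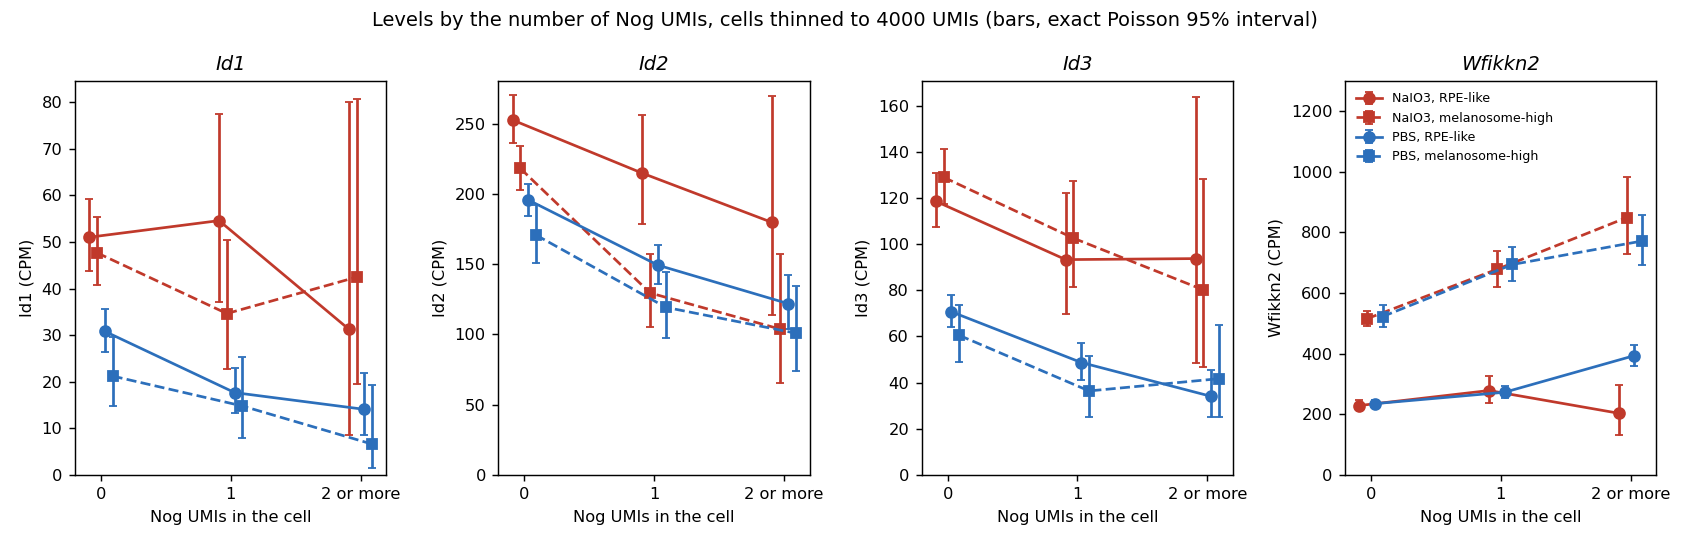
Level in CPM of Id1, Id2, Id3 and Wfikkn2 by the number of Nog UMIs in a cell thinned to 4000 UMIs, with NaIO3 in red and PBS in blue, circles for RPE-like and squares for melanosome-high cells, and exact Poisson 95% intervals. In PBS RPE-like cells Id3 goes through 70.7, 48.7 and 34.0 CPM, and Wfikkn2 through 235, 273 and 394 CPM.

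In the matrix-rich cells, found in NaIO3 alone, Bmp4, Bmp7, Nog and Wfikkn2 were low and Id3 was high. Otx2 and Mitf, factors of pigment cells, were at 208 and 103 CPM there, against 328 and 71.0 CPM in NaIO3 RPE-like cells. Of the melanosome genes, Pmel was at 30.8 against 48.9 CPM and Dct at 310 against 898 CPM, while Tyrp1 was at 245 against 122.5 CPM. The mean log2 fold of the melanosome genes over the median of clusters was 1.47 in the matrix-rich cluster of 123 cells and -0.059 in that of 90 cells. Cdkn2a was at 498 CPM in matrix-rich and 9.49 CPM in NaIO3 RPE-like cells. The 14 RPE markers summed to 11946 CPM against 108587 CPM, and Rpe65, at 241 CPM, and Ttr, at 4630 CPM, were no higher than in NaIO3 macrophage-like cells (272 and 4930 CPM). Against NaIO3 RPE-like cells, 5 of the 10 genes were lower by 1.5-fold or more (background 17.0% of 12772 genes) and 4 were higher (background 38.4%). Nog was at 6.92 CPM in matrix-rich and 50.8 CPM in NaIO3 RPE-like cells, a ratio of 0.136 (0.0957 to 0.189), and its interval overlaps that of NaIO3 surface epithelium-like cells at 6.06 CPM. Bmp4 was at 65.6 against 329 CPM (ratio 0.199), Wfikkn2 at 41.0 against 203 CPM (0.202), Bmp7 at 15.7 against 61.0 CPM (0.257) and Id2 at 89.1 against 253 CPM (0.352). Wfikkn2 in matrix-rich cells was no higher than in NaIO3 macrophage-like cells (50.65 CPM), and free RNA can set such values. Id3 was at 1071 against 123 CPM, a ratio of 8.72 (8.27 to 9.20), and seen in 94.4% of matrix-rich cells after thinning, with a mean of 4.22 UMIs per positive cell. Id1 was at 104 against 49.8 CPM (ratio 2.10) and Bmpr1a at 56.8 against 41.5 CPM (1.37). Smad6 was at 6.01 against 3.46 CPM (1.74, with 1.09 to 2.75, from 33 and 51 UMIs). Bmpr2 was at 93.7 against 61.4 CPM (1.52, with 1.365 to 1.70). The intervals of Smad6 and Bmpr2 reach below 1.5-fold. So Id2 was low where Id1 and Id3 were high, and the lowest Id2 level of all 10 groups was here.

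The 2 matrix-rich clusters were close for Id3 and differed for Bmp4 and Bmp7. In the smaller, Bmp7 (21 UMIs) and Nog (10 UMIs) were no higher than in NaIO3 macrophage-like cells, at 8.93 and 3.95 CPM. Free RNA can set such values. In the cluster of 90 cells led by Tagln, Cdkn2a and Col1a1, Bmp4 was at 32.2 CPM, Bmp7 at 8.06 CPM, Nog at 3.84 CPM and Id3 at 1087 CPM. In the other, of 123 cells, led by Cthrc1 and Fbln2, Bmp4 was at 95.8 CPM, Bmp7 at 22.6 CPM, Nog at 9.72 CPM and Id3 at 1055 CPM. Fibroblast markers were at a summed 1914 CPM in matrix-rich cells, against 76.3 CPM in NaIO3 RPE-like cells. All 9 were detected, 3 of them collagen genes that the matrix list holds too. Mural markers were at 1552 CPM in matrix-rich and 191 CPM in NaIO3 RPE-like cells. Of these, 8 of 9 were detected in matrix-rich cells (Abcc9 was not), and the matrix list holds the mural marker Acta2 too. Fibroblast-like cells of PBS had the highest Id3 of all groups (1612 CPM), and the part of such cells in the Id3 level was not tested. Matrix-rich cells had a median of 25099 UMIs, and clusters were formed on these same counts, so the ratios are descriptions.

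In dividing NaIO3 cells with RPE genes, Nog and Wfikkn2 were low and Id1 and Id3 high. Nog was at 17.1 CPM against 50.8 CPM in NaIO3 RPE-like cells (ratio 0.336), Wfikkn2 at 51.7 against 203 CPM (0.255), and these were the 2 genes lower by 1.5-fold or more (background 9.55% of 12061 genes). Wfikkn2 there was no higher than in NaIO3 surface epithelium-like cells (54.05 CPM), and free RNA can set such values. Id3 was at 536 against 123 CPM (4.36), Id1 at 117 against 49.8 CPM (2.36) and Smad6 at 8.26 against 3.46 CPM (2.39, from 15 UMIs), the 3 genes higher (background 20.3%). Id2, at 379 against 253 CPM, was just within 1.5-fold. Bmp4, at 233 CPM, and Bmp7, at 40.7 CPM, lay between matrix-rich and RPE-like cells, while Id2 was above both. Id1 and Smad6 were above both too, but their intervals overlap those of matrix-rich cells. Bmpr1a, at 36.9 CPM (28.6 to 46.8), was below both, with an interval that overlaps that of NaIO3 RPE-like cells.

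Melanosome-high cells set against other RPE-like cells of their own library differed in few of the genes. In NaIO3, 2 of 10 were higher (Wfikkn2, and Smad6 at 6.72 against 3.46 CPM; background 22.4% of 12683 genes) and 0 lower (background 7.35%). In PBS, 1 was higher (Wfikkn2; background 7.35% of 12877 genes) and 1 lower (Id1, at 13.7 against 23.8 CPM, a ratio of 0.576 with 0.464 to 0.710; background 6.37%).

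Surface epithelium-like cells, which carry keratin genes of cornea and conjunctiva, were common in the NaIO3 library (687 cells) and few in PBS (66 cells), and their Id genes were not alike. Id1 was at 293 CPM in NaIO3 and 186 CPM in PBS, a ratio of 1.57 (1.35 to 1.85), and Id3 at 93.6 and 61.0 CPM, a ratio of 1.53 (1.17 to 2.05). Id2 was at 317 CPM in NaIO3 and 534 CPM in PBS, a ratio of 0.593 (0.538 to 0.654), the reverse of its direction in RPE-like cells; the difference between the classes was not tested. Of the 10 genes 3 were lower (Nog, Bmp4 and Id2; background 11.6% of 10992 genes) and 2 higher (Id1 and Id3; background 26.2%). Nog, at 6.06 CPM in NaIO3 and 21.8 CPM in PBS, and Bmp4, at 22.0 and 39.2 CPM, were far below the RPE-like levels of their own library, and free RNA can set such values.

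The wider pathway was read from a list of 68 further genes, of which 67 had a row and 39 at least 20 UMIs in RPE-like cells. Of the 39, 3 were lower and 10 higher by 1.5-fold or more in NaIO3 than in PBS, where 7.01% and 14.8% of all measured genes were, and their median log2 ratio was -0.01, beside 0.06 over all genes. Among ligands, Bmp2 was at 71.4 CPM in NaIO3 and 89.6 CPM in PBS, Gdf11, the target of Wfikkn2's product, at 75.0 and 67.5 CPM, and Bmp6 at 1.97 and 2.12 CPM, all within 1.5-fold. Of 8 measured antagonists and modulators 4 were higher. Chrd, which encodes chordin, another BMP antagonist, was at 17.0 CPM in NaIO3 and 10.3 CPM in PBS, a ratio of 1.65 (1.40 to 1.94). Bmp1, the protease that cleaves chordin, was at 20.0 and 5.83 CPM (ratio 3.43), the follistatin-like genes Fstl3 at 5.83 and 0.657 CPM (8.87) and Fstl1 at 46.2 and 29.8 CPM (1.55). Sostdc1, a secreted BMP antagonist, was at 417 CPM in NaIO3 and 514 CPM in PBS, and Twsg1, which binds chordin, at 21.4 and 24.6 CPM.

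Of 10 measured receptors and coreceptors, 1 was lower and 2 higher. The type II receptor gene Acvr2b was at 11.1 CPM in NaIO3 and 21.7 CPM in PBS, a ratio of 0.513 (0.431 to 0.608), and its ratio in melanosome-high cells was 0.341 (0.258 to 0.447). The type I receptor gene Acvr1 was at 12.95 and 7.86 CPM (1.65), and the coreceptor gene Rgmb at 8.34 and 5.37 CPM (1.55), while the coreceptor gene Tgfbr3 (60.4 and 69.2 CPM) and Neo1, which encodes the receptor neogenin (26.7 and 28.2 CPM), were within 1.5-fold. Of 9 transducers and their inhibitors 1 was higher, Smurf1, which encodes a ubiquitin ligase for BMP SMADs, at 6.51 and 3.89 CPM (1.68). Smad5 (17.7 and 22.5 CPM), the shared Smad4 (17.3 and 20.3 CPM) and the corepressor gene Skil (17.7 and 22.6 CPM) were within 1.5-fold. Of 4 further targets, Hey1, which encodes a repressor also induced by Notch, was at 2.58 and 0.858 CPM (3.01) and Id4 at 0.814 and 0.429 CPM from 12 and 15 UMIs, while Hey2 was at 1.90 and 2.49 CPM. Of the E protein genes, Tcf3 was at 13.8 CPM in NaIO3 and 8.20 CPM in PBS (1.69), and Tcf4 (24.4 and 28.1 CPM) and Tcf12 (38.04 and 38.7 CPM) were within 1.5-fold. The other genes counted as lower were chosen for mention after their values were seen: Gdf10 had 5 UMIs in NaIO3 and 24 in PBS, and Gata2 had 6 and 23.

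5 of the 10 higher genes (Fstl1, Fstl3, Bmp1, Id4 and Hey1) and 1 of the 3 lower ones (Gdf10) were in RPE-like cells more than 10-fold below their level in another class, where free RNA can set the value. With the estimate of free RNA subtracted, 4 list genes were lower and 8 higher. In melanosome-high cells 1 of 34 measured list genes was lower and 14 were higher, beside 7.43% and 30.1% over all genes, with a median of 0.54 beside 0.27 over all genes. In matrix-rich against RPE-like cells of NaIO3, 9 of 43 were lower and 29 higher, beside 17.0% and 38.4% over all genes, with a median of 1.73 beside 0.33. Of 12 measured secreted antagonists and modulators other than Nog and Wfikkn2, 9 were higher in matrix-rich cells and 2 lower, with a median log2 ratio of 4.15. Only 8 of these were measured between the libraries in RPE-like cells. The rest had at most 9 UMIs in NaIO3 RPE-like cells. They could reach the limit on summed UMIs only through matrix-rich cells, so their direction was fixed as higher. They add to the 9 and can raise the median, and they are also among the 29 of 43.

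**Figure D5:**
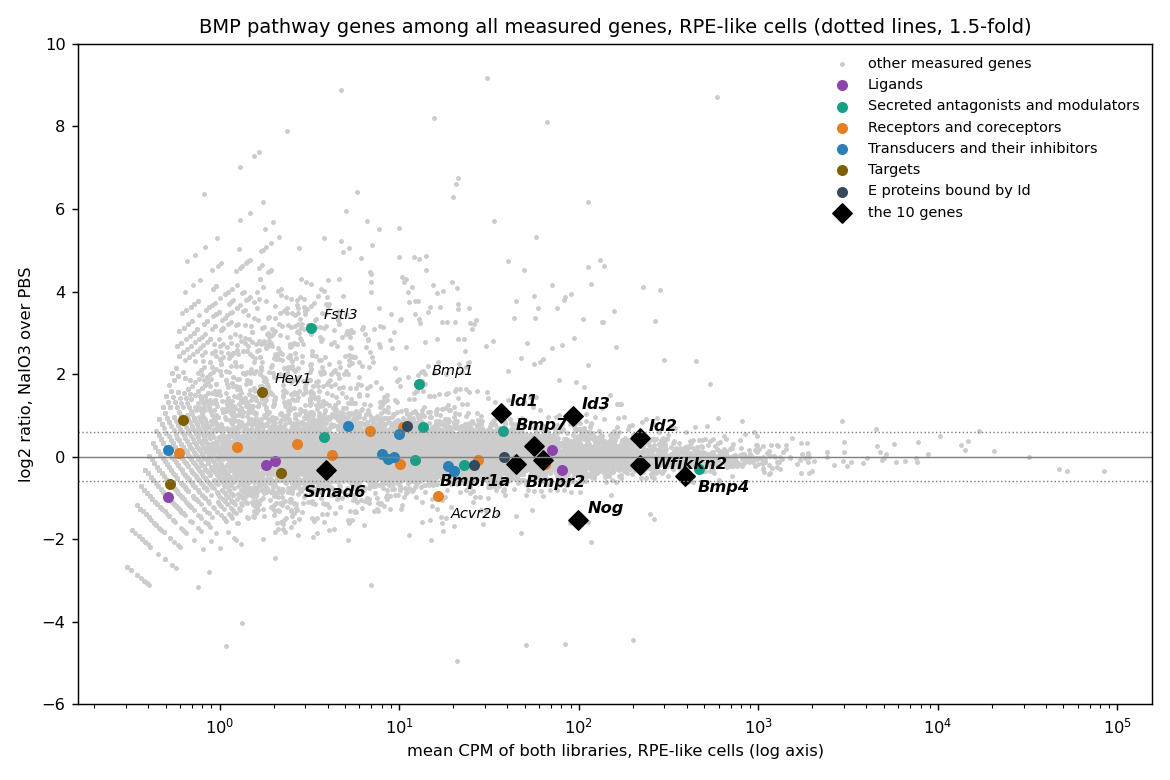
Log2 ratio of NaIO3 over PBS in RPE-like cells against the mean CPM of both libraries (log axis) for all 13448 measured genes in grey, the pathway list in colour by role and the 10 genes as black diamonds; a pseudocount of 0.5 in proportion to depth was added and dotted lines mark 1.5-fold. Nog lies below the lower line, Id1 and Id3 above the upper line, and the other 7 between the lines.

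The genes whose levels followed each of 7 genes most closely were ranked over 12 groups of a class or unnamed cluster and a library, by Pearson's r of log2(CPM + 5) among 11967 genes. These groups share 2 libraries and differ in depth, so r is a description. The closest to Nog were Thsd7a (r = 0.963), Slc24a1 (0.961) and Omg (0.959), and to Bmp4 they were Abat (0.995), Chchd10 (0.993) and Trpm3 (0.990). Bmp7 was followed by Rimklb (0.985), Chac2 and Mpv17l (0.983 each), and Wfikkn2 by Serpine3 (0.968), Inpp5k (0.952) and Gabrr2 (0.951). Id3 was followed by Igfbp2 (0.973), Col4a2 (0.965) and Fzd2 (0.962), and Id1 by Rnd3 (0.965), Zbtb8a (0.947) and Osbpl5 (0.946). For Id2 the closest were Cept1 (0.754), Parp12 (0.739) and Cdkn2c (0.734), so no gene followed Id2 as closely as those of the other 6. No gene was among the closest 3 of more than 1 of the 7.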

How the data were processed

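The authors deposited raw UMI counts for each gene and barcode of 2 libraries, without normalisation. The submitters' processing notes name Cell Ranger 3.0.2 and mm10, while no source used here states the annotation release, the strand setting or how multi-mapping reads were treated. Gene coordinates are those of GENCODE M21 (GRCm38), which holds the identifiers of 27645 of the 27998 gene rows.

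A barcode needed 500 genes or more and no more than 25% mitochondrial counts, and 114 NaIO3 and 231 PBS barcodes failed. Doublets were scored with Scrublet (scanpy 1.11.5), and the highest 128 scores in NaIO3 and 162 in PBS were removed, a share set by the number of barcodes, since its automatic threshold marked 4 and 0. The log of counts per 10000 was clustered over both libraries at once with 2000 variable genes (scaled, limit 10 SD), 30 principal components, 15 neighbours and Leiden resolution 1 (leidenalg 0.10.2, 5 iterations, seed 1), into 35 clusters. No gene was left out, so the 10 genes could shape the clusters.

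Names rest on marker lists: the mean log2 fold over the median of clusters (CPM + 5) had to be 1 or more, 3 markers had to reach that fold, and no other class could hold more of the 10 leading genes. Some class rules were set after values were seen. Melanosome-high needed 3 melanosome genes among the leading genes, ranked over all clusters or over the other RPE-like cells of the library. Matrix-rich clusters were unnamed ones with matrix genes at a mean log2 fold of at least 0.5 and Cdkn2a at 1 or more. Trpm1 was left out of the bipolar markers, clusters led by haemoglobin genes stayed unnamed, and so did those of another class with RPE genes, but for dividing cells.

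Counts were summed per class and library and given as CPM. Levels have exact Poisson, ratios exact conditional binomial and shares Clopper-Pearson 95% intervals. A gene counted as lower or higher at a CPM ratio of 1.5-fold or more with at least 20 UMIs over both groups. The calls and intervals were tested on simulated data. Free RNA was estimated from 16 genes that RPE should lack and subtracted with the profile of the whole library. The members, lists and rules were chosen with earlier results of these data known. Named are all 10 genes, from the pathway list the 3 highest of each role and every gene past 1.5-fold with at least 50 UMIs, and the 3 genes most alike to each of 7 genes. Alternatives changed 1 step at a time, with TMM from edgeR 4.0.16 and median-of-ratios from DESeq2 1.42.0 used for scaling alone (R 4.3.3, Python 3.11.15).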

Additional observations from a re-analysis of the deposited data

How the results depend on the processing

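Over 14 other settings Nog in RPE-like cells had ratios from 0.314 to 0.410, Id1 from 1.88 to 2.21 and Id3 from 1.80 to 2.13, all past 1.5-fold. Those of Bmp4 ran from 0.690 to 0.761 and those of Id2 from 1.22 to 1.42. In melanosome-high cells, over the 6 settings that gave a value, Nog ran from 0.325 to 0.434, Id1 from 2.66 to 6.51 and Id3 from 2.06 to 5.99, the extremes of Nog, Id1 and Id3 farthest from 1 being with each library clustered alone (214 NaIO3 and 799 PBS cells). Id2 there passed 1.5-fold too, at 2.37. No melanosome-high value was to be had at a mitochondrial limit of 10%, with doublets kept, or at Leiden resolution 0.5 or 2, where fewer than 50 such cells were named in a library. Counts of genes past 1.5-fold moved by more than 1.5 times in 5 cases. Genes lower in RPE-like cells numbered 2 after thinning (Nog, and Smad6 at 0.525), genes lower in melanosome-high cells 2 with each library alone (Nog, and Bmp4 at 0.623), and genes higher in melanosome-high cells 4 with free RNA subtracted (Id1, Id3, Id2 at 1.51 and Smad6 at 1.53). With no filter on low counts 9 genes of the pathway list were lower and 23 higher, since genes with few UMIs then count; over the other settings they were 2 to 4 and 7 to 14. Smaller moves were to 3 genes higher in RPE-like cells at Leiden resolution 2 (Wfikkn2 at 1.51) and to 3 in melanosome-high cells with each library alone. At resolution 2 the RPE-like classes were unlike sets, since 0 NaIO3 and 1086 PBS cells were set apart as melanosome-high. TMM scaling shifted log2 ratios by -0.07 in RPE-like and -0.27 in melanosome-high cells; Bmp7, Bmpr1a and Bmpr2 in melanosome-high cells were then below 1. The settings without the interferon-led clusters were added after the data were seen. No paired analysis was possible because each group has 1 library, and for the same reason no replicate could be left out.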

Other observations

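In the 2 interferon-led NaIO3 RPE-like clusters, with 45 and 68 cells, Id1 was at 101 and 73.4 CPM and Id3 at 247 and 195 CPM, beside 45.8 and 113 CPM in the largest NaIO3 RPE-like cluster of 875 cells. The cluster of 45 cells thus held the highest Nog (169 CPM), Id1 and Id3 of these 3 clusters. For Id1 and Id3 its intervals overlap those of the cluster of 68 cells. Id2 was highest in the cluster of 68 cells, at 430 CPM, against 349 CPM in that of 45 cells and 237 CPM in the largest. Bmp4 in the cluster of 45 cells, at 247 CPM, was below the 333 CPM of each of the other 2.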
